A study of Mus musculus with 6 samples.

Results

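The vomeronasal type 2 receptor genes, symbol prefix Vmn2r, were followed in RNA from whole mouse brain. Members were chosen by symbol and gene type: 122 of the 55450 genes in the count tables are protein-coding in GENCODE M21 and have a symbol that starts with Vmn2r. No count decided membership, but the family was put forward with earlier results of these data in view, so the counts below are a description. Long RNA, left after small RNAs were removed from total RNA by size, was read in 6 libraries. A set of 3 comes from wild-type (WT) animals and a set of 3 from animals labelled TRMT1L knockout (KO). The study's design text calls them biological triplicates, and the labels used here give no strain, age, sex, allele or treatment, nor which animal gave which library. P-values therefore measure the spread between these libraries. TRMT1L is a paralogue of the tRNA guanosine methyltransferase TRMT1.

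Type 2 vomeronasal receptors are family C G-protein-coupled receptors, relatives of the metabotropic glutamate receptors and the calcium-sensing receptor, with a large extracellular domain that binds ligands. They are known from basal sensory neurons of the vomeronasal organ, where they detect peptide and protein pheromones and signal through the G protein subunit encoded by Gnao1 and the cation channel Trpc2. Most such neurons carry 1 receptor of the larger families together with a broadly expressed partner from Vmn2r1 to Vmn2r7, and some also make H2-Mv molecules, nonclassical class I proteins of the major histocompatibility complex.

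Libraries held between 31201119 and 36145961 counts on the strand of the annotated gene (gene strand), which was 94.6% to 94.8% of the counts of both strands. Trmt1l, the targeted gene, held 1279, 1034 and 1158 counts in WT and 93, 101 and 106 in KO, and the fitted KO over WT difference was -3.58 on the log2 scale (SE 0.0813, edgeR adjusted p = 6.95e-10). The 3 libraries labelled KO thus lie far below the 3 labelled WT for the gene named in the labels. Across all genes, 2 of 21237 tested on the gene strand passed an adjusted p of 0.05, which is 0.00942%. For reads on the strand opposite to the gene (opposite strand) 3 of 10787 passed, which is 0.0278%.

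Most of the family was silent in brain. On the gene strand 80 of 122 members (65.6%) had 0 counts in all 6 libraries. In a single library a count of 0 allows up to 3 counts, or 0.0824 to 0.0957 CPM (counts scaled to the library total adjusted by its TMM factor). That limit covers counting error alone. Another 19 members held a single count in all 6 libraries together, 6 held 2 to 9 and 17 held 10 or more. A count in every library was found for 14 members. On the opposite strand 84 members (68.9%) were silent, and 59 were silent on both strands. Taken over the family, 6955 counts lay on the gene strand and 678 on the opposite strand, so 91.1% of the stranded counts lay on the gene strand.

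The counts were concentrated in few genes. The 4 neighbours Vmn2r84, Vmn2r85, Vmn2r86 and Vmn2r87 on chromosome 10 held 4955 of the 6955 gene-strand counts (71.2%). Vmn2r1 to Vmn2r7 on chromosome 3 held 853 (12.3%), and 3 groups on chromosome 7 held 496, 284 and 279 counts. The remaining 76 members held 88 counts in all.

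The 5′ flanks of the chromosome 10 genes are shown because these 4 genes lead the family in brain. They are the parts of the 250 bases before each RefSeq start, with coordinates on GRCm38.p6, that lie outside the GENCODE M21 gene. Each is read 5′ to 3′ on the gene's strand, and capitals mark a stretch of 28 bases that the 4 share.
Vmn2r84, chr10:130394333-130394491, minus strand: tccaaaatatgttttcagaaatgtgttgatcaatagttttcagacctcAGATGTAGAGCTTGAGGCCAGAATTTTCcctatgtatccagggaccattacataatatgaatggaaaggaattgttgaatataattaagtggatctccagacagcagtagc
Vmn2r85, chr10:130429704-130429862, minus strand: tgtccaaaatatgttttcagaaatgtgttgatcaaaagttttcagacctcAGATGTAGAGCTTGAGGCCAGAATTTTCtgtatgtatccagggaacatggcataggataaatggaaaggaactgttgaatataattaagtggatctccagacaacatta
Vmn2r86, chr10:130456051-130456144, minus strand: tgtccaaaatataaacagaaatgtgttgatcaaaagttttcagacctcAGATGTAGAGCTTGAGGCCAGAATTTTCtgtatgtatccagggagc
Vmn2r87, chr10:130497397-130497629, minus strand: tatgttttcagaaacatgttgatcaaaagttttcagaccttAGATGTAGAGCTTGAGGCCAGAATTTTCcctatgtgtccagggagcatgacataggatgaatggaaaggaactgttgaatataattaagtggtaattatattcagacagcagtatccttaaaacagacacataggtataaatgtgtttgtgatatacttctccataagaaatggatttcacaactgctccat

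Over the full 250-base windows the 4 flanks were 83.0% to 91.7% identical in pairs. The capital stretch AGATGTAGAGCTTGAGGCCAGAATTTTC begins at position -202 from the RefSeq start in Vmn2r84 and Vmn2r86, at -200 in Vmn2r85 and at -209 in Vmn2r87. Searched on both strands, it is held by 10 of 32851 RefSeq promoter windows of that length (0.0304%), all from this family. The other 6 are Vmn2r8, Vmn2r9, Vmn2r10, Vmn2r11, Vmn2r13 and Vmn2r14 on chromosome 5, which held 1 gene-strand count between them, in Vmn2r8. The stretch therefore occurs in front of members with many counts and of members with none, and it is a description of these windows and not a site. A window was found for 115 of the 122 members. Member windows had a median GC content of 38.6%, against 52.4% over all windows, and 62.9% of them held at least 1 CG, against 92.1%.

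Vmn2r29 is shown as well because it has 2 RefSeq starts whose flanks differ. Capitals mark CG in the pair below.
Vmn2r29, chr7:7247329-7247578, minus strand: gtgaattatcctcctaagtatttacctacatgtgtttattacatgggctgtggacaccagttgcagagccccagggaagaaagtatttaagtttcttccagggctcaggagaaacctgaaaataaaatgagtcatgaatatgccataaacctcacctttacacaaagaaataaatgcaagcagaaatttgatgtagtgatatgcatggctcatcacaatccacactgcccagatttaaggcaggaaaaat
Vmn2r29, chr7:7278290-7278539, minus strand: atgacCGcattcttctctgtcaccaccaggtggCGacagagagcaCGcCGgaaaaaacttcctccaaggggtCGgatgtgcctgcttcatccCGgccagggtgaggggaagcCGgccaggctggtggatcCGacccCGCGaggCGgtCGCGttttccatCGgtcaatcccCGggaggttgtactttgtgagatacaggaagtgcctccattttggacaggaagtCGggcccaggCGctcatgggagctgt

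The first flank holds no CG and has a GC content of 39.2%. The second, which lies directly before the annotated start of the overlapping gene Gm45844, holds 17 CG and has a GC content of 60.8%. No other member window exceeded 44.4% GC or 4 CG.

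Vmn2r85 (ENSMUSG00000092048.3, chr10:130414064-130429703, minus strand) had the most gene-strand counts, with 274, 305 and 212 in WT and 198, 202 and 264 in KO. Vmn2r87 (ENSMUSG00000091511.3, chr10:130471052-130497396, minus strand) had 231, 275 and 257 counts in WT and 212, 192 and 245 in KO. Both had at least 192 counts in every library, with KO replicate 3 inside the WT range. Vmn2r84 (ENSMUSG00000070601.5, chr10:130377925-130394332, minus strand) held 237, 295 and 227 counts in WT and 159, 142 and 170 in KO, and here the groups did not overlap. Vmn2r86 (ENSMUSG00000092162.3, chr10:130441562-130456050, minus strand) had 156, 155 and 154 in WT and 117, 138 and 138 in KO, again without overlap. In CPM every KO library lay below every WT library for 6.97% of all genes tested. The opposite strand of these 4 genes held 5 counts in all, so the reads came from the minus strand.

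Per kilobase of exon the order of the 4 differed from the order of their counts, because their annotated exons range from 3333 to 11667 bases. The WT level was 2.29 ± 0.366 CPM per kilobase (SD, n = 3) for Vmn2r87, 1.15 ± 0.245 for Vmn2r85, 0.652 ± 0.135 for Vmn2r84 and 0.632 ± 0.0450 for Vmn2r86. Vmn2r84 and Vmn2r86 did not differ beyond their spread in WT. On the same scale Vmn2r29 stood at 0.505, Vmn2r1 at 0.491, Vmn2r57 at 0.233 and Vmn2r2 at 0.129. Family C receptors with known roles in brain were higher, with 88.3 for the GABA receptor subunit Gabbr1 and 25.8 for the glutamate receptor Grm5 in WT. Grm8 stood at 3.36, above Vmn2r87. The calcium-sensing receptor Casr at 0.216 and the sweet and umami taste subunit Tas1r3 at 0.458 lay within the range of the Vmn2r genes named here.

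**Figure D1:**
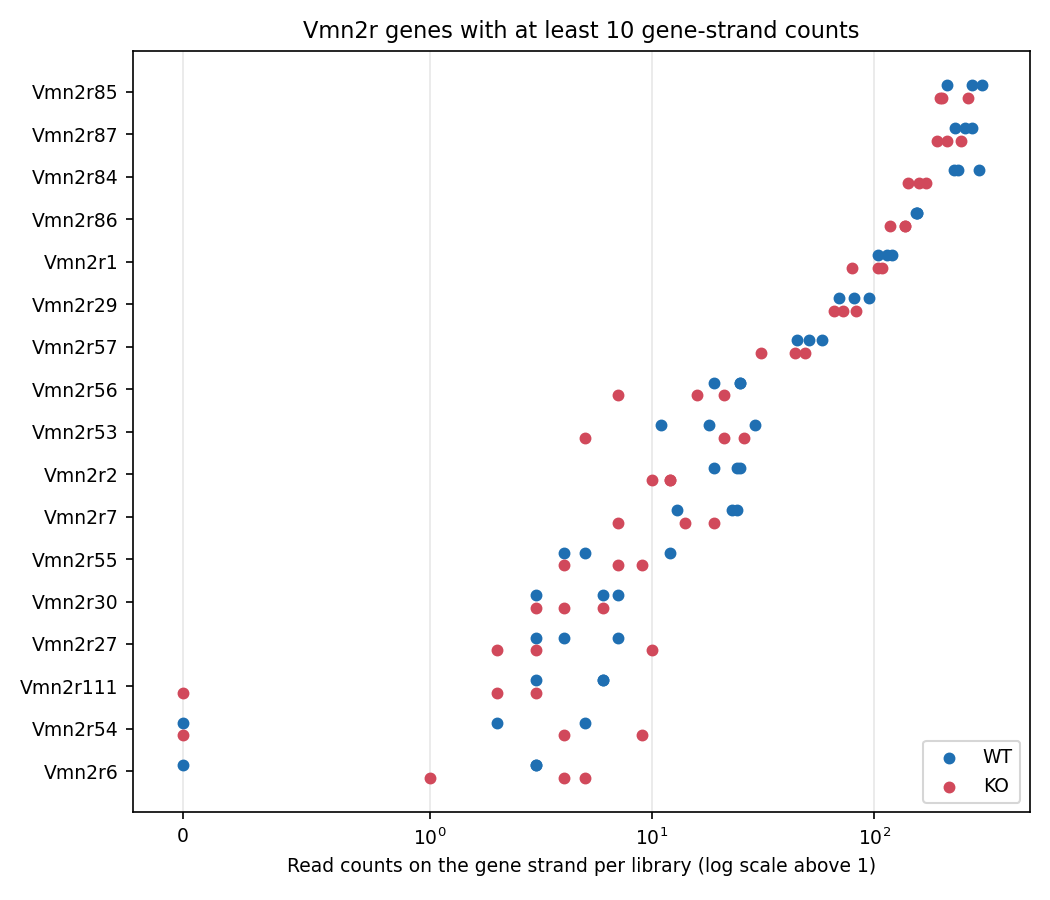
Gene-strand read counts of the 17 members with at least 10 counts, 1 point per library (WT blue, KO red) on an axis that is logarithmic above 1. The 4 chromosome 10 genes lie at 117 to 305 counts per library, and the points of Vmn2r84 and Vmn2r86 separate by group. Of all genes tested, 6.97% had every KO library below every WT library in CPM.

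Vmn2r1 to Vmn2r7, the broadly expressed partner receptors, were unevenly represented. Vmn2r1 (chr3:64081547-64109484, plus strand) held 120, 114 and 104 counts in WT and 108, 79 and 104 in KO. Vmn2r2 (chr3:64115278-64141928, minus strand) held 24, 25 and 19 in WT and 10, 12 and 12 in KO. Its groups did not overlap, and in CPM KO lay wholly below WT for 6.97% of all genes tested. Vmn2r7 had 24, 23 and 13 in WT and 7, 19 and 14 in KO. Vmn2r1 was thus the most abundant of the 7 by count. The other 4 were near or at the limit of detection: 16 counts in all libraries together for Vmn2r6, 5 for Vmn2r5, 1 for Vmn2r4 and 0 for Vmn2r3.

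The opposite strand held a different set. Vmn2r2 had more counts there than on its own strand, 46, 26 and 30 in WT and 23, 16 and 19 in KO, which left 38.9% of its stranded counts on the gene strand. Vmn2r57 (chr7:41395945-41448696, minus strand) was split almost evenly, with 278 gene-strand and 254 opposite-strand counts. Vmn2r112 (chr17:22600951-22620842, plus strand) had 0 gene-strand counts in every library and 17, 19, 14, 24, 15 and 18 opposite-strand counts, WT first. For these 3 genes a count without strand would have taken reads of the other strand for the receptor.

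In all, 21 members had counts on the opposite strand alone, 25 on the gene strand alone and 17 on both. Vmn2r60, with 33 opposite-strand counts, and Vmn2r3, with 22, also had none on the gene strand. Vmn2r30 was split into 29 and 22. Of the 38 members with opposite-strand counts, 7 had 10 or more in all, the last being Vmn2r53 with 10 against 110 on its own strand. Vmn2r115 came next, with 7 against 2.

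**Figure D2:**
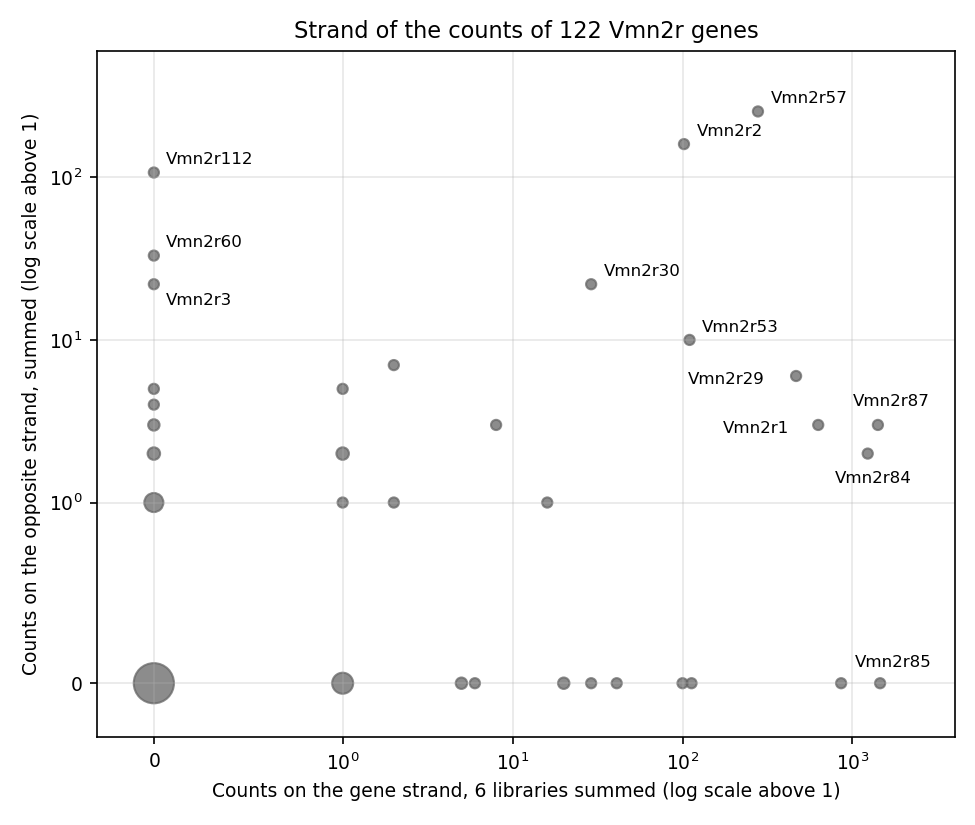
Each point is a member or a set of members with the same pair of counts (larger points hold more members), with gene-strand counts across and opposite-strand counts upward, 6 libraries summed, both axes logarithmic above 1. Vmn2r112, Vmn2r60 and Vmn2r3 lie on the left edge, and the chromosome 10 genes lie at the lower right.

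Several of the genes with counts sit in stretches where neighbours share reads of the same strand. These 4 stretches were picked after the counts had been seen, and their values are given per kilobase of exon, 6 libraries summed. On chromosome 10, minus-strand reads stood at 612 counts per kilobase in the pseudogene Gm35405, before Vmn2r87 in the direction of transcription. They went on at 424 in Vmn2r87, 274 in Gm18755, 117 in Vmn2r86, 213 in Vmn2r85, 166 in Gm9770 and 105 in Vmn2r84. In Tespa1, after Vmn2r84, the density was lower, at 20.97 per kilobase from 132 counts. Gm9770 and Tespa1 are annotated on the plus strand, so the run of minus-strand reads is not limited to genes annotated on that strand. No gene with at least 1000 counts lies before it on that strand, up to the chromosome end.

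On chromosome 3 plus-strand reads were followed from Gmps, which encodes GMP synthase and held 33704 counts, or 4158 per kilobase. The density was 158 in the minus-strand pseudogene Vmn2r-ps3, 91.7 in Vmn2r1, 30.4 opposite to Vmn2r2, 41.2 opposite to Gm18294 and 1.26 opposite to Vmn2r3. Vmn2r1 starts 59.0 kb after the end of Gmps. Its own counts and the opposite-strand counts of Vmn2r2 and Vmn2r3 therefore lie on 1 strand of 1 stretch, with a lower density at each feature named here than at the one before, Gm18294 excepted.

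On chromosome 7 minus-strand reads were followed from the zinc finger gene Zscan18, at 1182 counts per kilobase. Vmn2r56 held 14.2, Vmn2r55 held 16.5, Vmn2r54 held 4.70 and Vmn2r53 held 4.97 per kilobase, in that order along the strand. On chromosome 17 the minus-strand pseudogene AC098880.2 held 1471 counts per kilobase and AC098880.1, read opposite to its annotation, held 71.6. The opposite strand of Vmn2r112 followed with 8.65 and the gene strand of Vmn2r111 with 2.73. In both stretches the receptor genes lay far below the feature at the start. Whether reads of the receptor genes come from transcripts that start at these other features was not tested, since the tables hold no read positions.

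**Figure D3:**
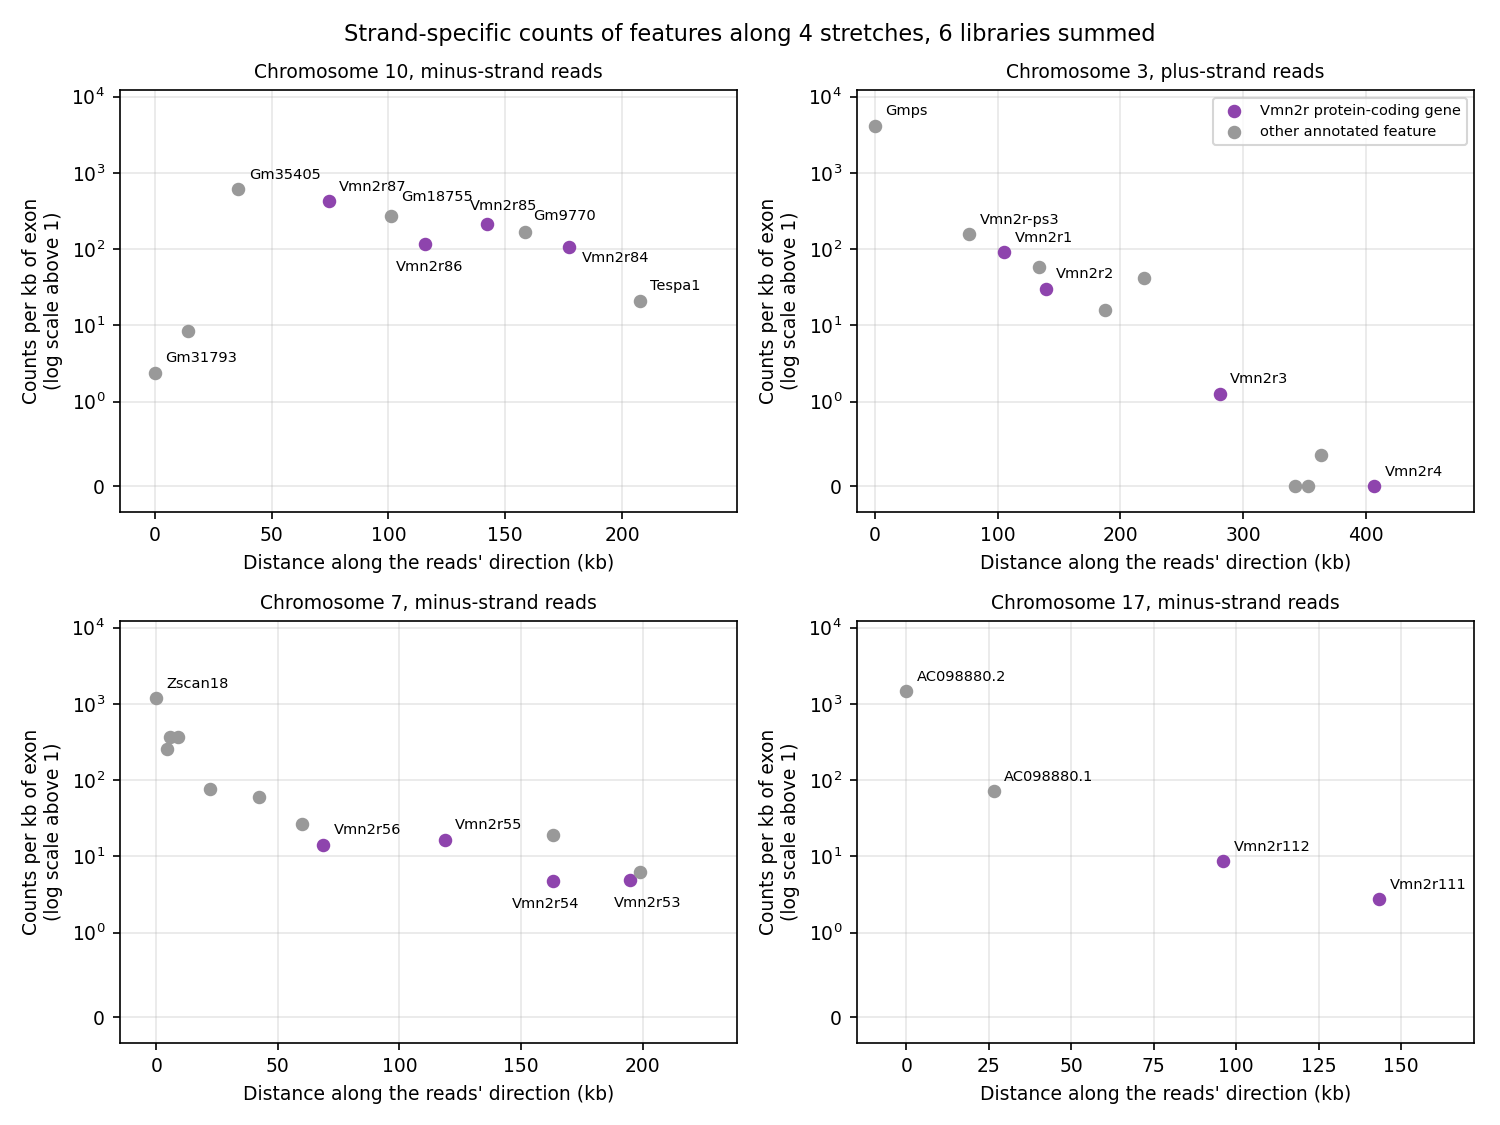
Counts per kilobase of exon (logarithmic above 1) against distance in kb along the direction of the reads for 4 stretches, with Vmn2r genes in purple and other features in grey. Density on chromosome 3 goes from 4158 in Gmps to 1.26 at Vmn2r3, and on chromosome 10 the Vmn2r genes lie between 105 and 424.

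Overlapping annotation touches other members. Vmn2r29 (chr7:7231327-7247328, minus strand), with 95, 81 and 69 counts in WT and 66, 72 and 83 in KO, lies inside Gm45844 on the same strand, shares 2228 exon bases with it, and Gm45844 itself held 1281 counts. Vmn2r57 shares 583 exon bases with Gm17102 on the other strand, and a plus-strand read there enters both the 149 counts of Gm17102 and the opposite-strand counts of Vmn2r57. It also shares 2141 exon bases with Gm20449 on its own strand, where reads that fit both genes were left out of the tables. Vmn2r54, with 20 counts, shares 1743 exon bases with AC139131.1, which held 144. Vmn2r60 shares 800 exon bases with Gm2308 on the other strand, which held 32 counts, close to the 33 opposite-strand counts of Vmn2r60. For Vmn2r30, Gm45415 on the other strand shares 2074 exon bases and held 10 counts, and Gm45783 on its own strand shares 186 and held none. Vmn2r53 encloses Gm15773, a pseudogene on the other strand with 38 counts and no shared exon bases. Vmn2r7 overlaps Gm26939, which held none, and Vmn2r-ps12, which held 1. With the 22 members that overlap another gene left out, 69 of 100 were silent on the gene strand.

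Reads that map to several places were left out of the tables, so the sequence that members share with other genes was measured. For each member, the share of 50-base words of its transcripts found in transcripts of other genes was counted. Its median was 18.6% in the silent members, with a range of 0.226% to 100%, and 15.9% in the members with gene-strand counts. Of the 80 silent members, 9 shared over 90% of their words and 24 shared under 10%. Silence was thus seen at both ends of the range. In the group of 24 genes from Vmn2r29 to Vmn2r52 on chromosome 7 the median was 80.4%, and 3 of the 24 had any gene-strand count. Vmn2r29 itself shared 78.0%. These shares include genes that overlap a member in the genome, whose common words lie at 1 place. With overlapping genes left out the share was 48.5% for Vmn2r29, 13.9% for Vmn2r57, against 42.9% before, and the median was 17.6% in silent members and 15.4% in members with counts. How many reads were lost to repeated sequence was not tested.

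**Figure D4:**
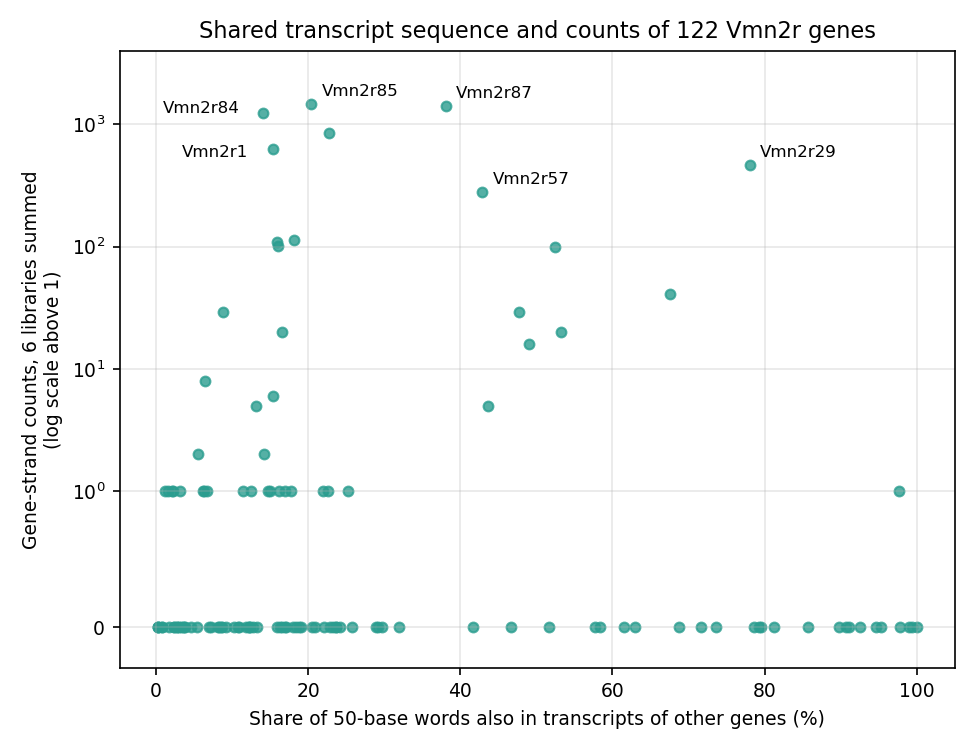
Gene-strand counts of the 122 members (6 libraries summed, logarithmic above 1) against the share of 50-base words, in percent, also present in transcripts of other genes, overlapping genes included. Members at 0 counts span 0.226% to 100%, and Vmn2r29 stands apart with 466 counts at 78.0%.

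The rest of the family was close to empty in every stretch of the genome. The 22 members from Vmn2r90 to Vmn2r110 on chromosome 17 held 7 counts, the 15 from Vmn2r65 to Vmn2r79 on chromosome 7 held 8, and the 10 from Vmn2r8 to Vmn2r17 on chromosome 5 held 2. Vmn2r88, Vmn2r89, Vmn2r28, Vmn2r118, Vmn2r121 and Vmn2r-ps159, a gene annotated as protein-coding despite its name, held none. Vmn2r27 on chromosome 6 was the sole member of its group of 9 with at least 10 counts, 7, 4 and 3 in WT and 3, 2 and 10 in KO.

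Silence was also common among other chemosensory receptors. Genes with 0 gene-strand counts made up 73.7% of 209 Vmn1r genes, 44.9% of 1135 Olfr genes, 66.7% of 15 Taar genes and 82.9% of 35 Tas2r genes, against 13.9% of 21951 protein-coding genes. Of the 116 Vmn2r pseudogenes and other Vmn2r gene types, 95 (81.9%) were silent. These shares depend on depth and on shared sequence, and the differences between families were not tested.

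Markers of vomeronasal sensory neurons were mixed. Trpc2, the transduction channel, had 0 counts in all 6 libraries and Tfap2e, a transcription factor of basal vomeronasal neurons, had 2. Of the 9 H2-Mv genes, 8 had none and H2-M1 had 1 count. The other 9 of the 11 neuron and transduction markers were tested, and 0 were called. Among them Calr4 held 158 counts, Gng8 381, Omp, the olfactory marker protein, 1481, the chloride channel genes Ano1 and Ano2 1524 and 1475, and Gng13 6710. Omp, Ano2 and Gng13 are also among the olfactory sensory neuron markers below, so their counts are not specific to vomeronasal neurons. Gnai2, Meis2 and Gnao1, which brain neurons also make, held 26798, 32557 and 124548. Summed over all 11 markers, a sum that these brain genes dominate, the level was 922 to 962 CPM in WT and 952 to 1001 in KO.

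The comparison of KO with WT asks whether loss of TRMT1L goes with a different level of these transcripts. In bulk tissue fewer cells of a type and less RNA per cell cannot be told apart. On the gene strand 11 members (9.02%) passed the filter on low counts, and none passed an adjusted p of 0.05 in the edgeR fit, against 0.00942% of all genes tested. At an unadjusted p under 0.05 there were 4 members lower in KO and 0 higher, where 3.38% of all genes were lower at that level. Every KO library lay below every WT library, in CPM, for 5 members, Vmn2r84, Vmn2r86, Vmn2r1, Vmn2r57 and Vmn2r2, where 6.97% of all genes did. The filter asks for 0.290 CPM in at least 3 of the 6 libraries. Of the 11 members, 7 reached it in every library, and Vmn2r2, Vmn2r7, Vmn2r53 and Vmn2r56 reached it in all 3 WT and in 2 KO libraries. These 4 thus needed their WT libraries to be tested at all, and no member had more KO than WT libraries at that level. The counts of members lower in KO are therefore partly set by the filter and are given as a description. Several of the 11 share a stretch of one strand, and the other 111 have no fold change of their own.

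Vmn2r84 had the smallest p of the family. Its level was 6.51, 9.41 and 6.90 CPM in WT and 4.58, 4.22 and 4.70 in KO, a mean of 7.61 ± 1.57 against 4.50 ± 0.251 (SD, n = 3 each). This is a difference of -0.75 on the log2 scale (SE 0.145), for which edgeR gave an adjusted p of 0.542. The call depends on the filter and on the test. With no filter on low counts edgeR gave an adjusted p of 8.44e-06, where 298 of 37245 genes were called. At a mean count of at least 50 edgeR gave 0.514. DESeq2, on the same genes as the main edgeR fit, gave no adjusted p under its own filter on mean counts. With that filter switched off it gave 0.0105, an alternative chosen after seeing the data. Without WT replicate 2 the log2 fold change was -0.57, with an edgeR adjusted p of 0.861.

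Its neighbours had smaller differences. The log2 fold change was -0.30 (SE 0.127, edgeR adjusted p = 0.622) for Vmn2r86, -0.30 (SE 0.131, adjusted p = 0.622) for Vmn2r87 and -0.32 (SE 0.153, adjusted p = 0.637) for Vmn2r85. Each lay below 0 without passing the test. Without WT replicate 2 the value was -0.14 for Vmn2r85 and -0.19 for Vmn2r87. The non-receptor features of the same stretch stood at -0.14 (SE 0.196) for Gm35405 and -0.36 (SE 0.186) for Gm18755. In the separate opposite-strand fit Gm9770 stood at -0.43 (SE 0.286) and Tespa1 at -0.46 (SE 0.279). None of these features passed the test, with edgeR adjusted p-values from 0.659 to 0.943. Summed over the 4 receptor genes, the level was 24.7, 32.9 and 25.8 CPM in WT and 19.7, 20.0 and 22.6 in KO, so the KO mean was 74.8% of the WT mean.

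Vmn2r2 had the second smallest p of the family. Its gene-strand log2 fold change was -1.05 (SE 0.280, edgeR adjusted p = 0.576) and its opposite-strand value was -0.87 (SE 0.270, edgeR adjusted p = 0.610), from 102 and 160 counts. Both strands were lower in KO, although reads of the 2 strands come from different transcripts. Vmn2r1, next to it, stood at -0.27 (SE 0.147, edgeR adjusted p = 0.669) and the upstream Gmps at -0.015. Of the pseudogenes read on the same strand, Vmn2r-ps3 stood at 0.26 (SE 0.276) and Gm18294 at -0.30 (SE 0.370). Without KO replicate 2 the value for Vmn2r1 was -0.17. On the raw counts Vmn2r1 did overlap, with 108 in KO replicate 1 against 104 in WT replicate 3, and so did Vmn2r57, with 49 in KO replicate 3 against 45 in WT replicate 2. For both the separation in CPM rests on the scaling.

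For the other tested members the log2 fold change was -0.70 for Vmn2r56, -0.63 for Vmn2r7, -0.37 for Vmn2r57, -0.21 for Vmn2r53 and -0.20 for Vmn2r29, with edgeR adjusted p-values from 0.634 to 0.936. Their standard errors ran from 0.159 to 0.459, and single libraries set much of their size. Without KO replicate 1 the value was -0.33 for Vmn2r7, -0.20 for Vmn2r57, -0.13 for Vmn2r29 and -0.62 for Vmn2r53. Without KO replicate 2 it was -0.39 for Vmn2r56, -1.002 for Vmn2r7 and 0.21 for Vmn2r53, which was also above 0, at 0.14, without WT replicate 1. Vmn2r53 held 29, 11 and 18 counts in WT and 26, 5 and 21 in KO, a spread within each group larger than the difference. On the opposite strand 3 members passed the filter and none passed the test in edgeR, against 0.0278% of all genes tested. Vmn2r2 alone had an unadjusted p under 0.05 and was lower in KO, where 2.84% of all genes were. It also was the sole one with every KO library lower, where 5.43% of all genes were. Vmn2r57 stood at -0.087 (SE 0.211) and Vmn2r112 at 0.12 (SE 0.309) on that strand, both with an edgeR adjusted p of 0.982. The value for Vmn2r57 was -0.0023 without WT replicate 2, -0.025 without KO replicate 2 and -0.17 without WT replicate 3. That for Vmn2r112 was -0.087 without KO replicate 1 and 0.27 without WT replicate 2.

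**Figure D5:**
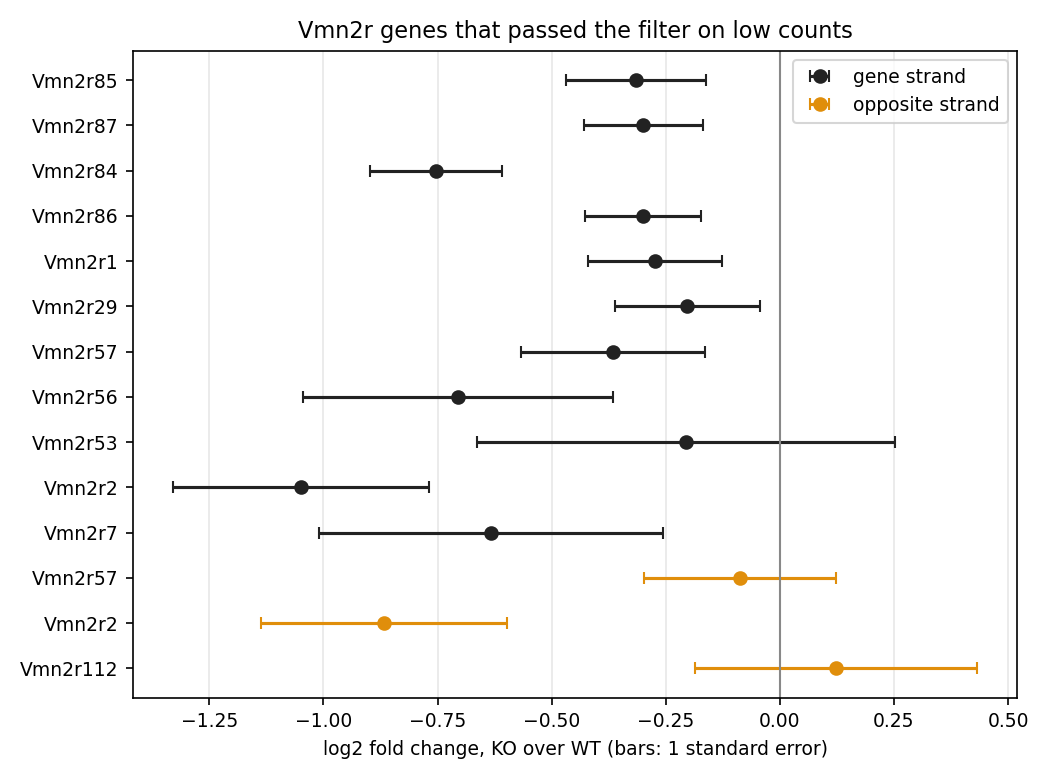
Log2 fold changes of KO over WT from the edgeR fits for the 11 members tested on the gene strand (black) and the 3 on the opposite strand (orange), with bars of 1 standard error. The gene-strand values lie between -1.05 and -0.20, and no member passed an adjusted p of 0.05.

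Over the whole family the gene-strand level was 36.1, 44.3 and 35.6 CPM in WT and 28.5, 27.7 and 32.1 in KO. The means were 38.6 ± 4.90 and 29.5 ± 2.36 (SD, n = 3 each), and the KO mean was 76.2% of the WT mean. The 4 chromosome 10 genes make up most of that sum. The 118 others together stood at 10.8 ± 0.967 and 8.66 ± 0.912 CPM. The 111 members that could not be tested stood at 0.992 ± 0.149 CPM in WT and 0.970 ± 0.274 in KO, and the filter that set them apart moved members with higher WT counts out of this sum.

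Markers of olfactory bulb neurons had higher summed levels in KO. The 5 markers summed to 38.2 to 53.8 CPM in WT and 54.9 to 84.5 in KO, and none was at 0. The largest parts were Cdhr1, with means of 25.7 CPM in WT and 36.0 in KO, and Th, with 11.8 and 13.9. Tbx21, a marker of mitral and tufted cells, held 29, 12 and 27 counts in WT and 43, 51 and 41 in KO, 0.94 higher in KO on the log2 scale (SE 0.275, edgeR adjusted p = 0.576). Cdhr1 and Doc2g had log2 fold changes of 0.48 and 0.64 at the same adjusted p, and 0 of the 5 passed the test. WT replicate 2, which had the highest family level, had the lowest counts of all 5. The 10 markers of olfactory sensory neurons summed to 353 to 382 CPM in WT and 329 to 354 in KO, a sum made up mostly by Gnal and Adcy3, which brain neurons also make. The more specific ones stood highest in WT replicate 3. Omp held 190, 102 and 391 counts in WT and 190, 311 and 297 in KO, Cnga2 held 22, 19 and 85 in WT and 18, 17 and 36 in KO, and Stoml3 held 51, 23 and 175 in WT and 39, 72 and 81 in KO. None of the 10 was at 0, 9 were tested and 0 were called, and the log2 fold change was 0.17 for Omp and -0.89 for Cnga2. The part of these cell types in the Vmn2r values was not tested.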

How the data were processed

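Reads were trimmed with cutadapt 1.9.1 and aligned with STAR 2.7.0f, per the submitters' processing notes. The authors deposited 1 table of raw read counts per gene and library, with an unstranded column and a column for each strand. The build and annotation are not given in the sources used here. The 55450 gene IDs are exactly those of GENCODE M21, which gave names, types, positions and exon lengths. Counts cover exons. Reads that map to several places, or to several genes on a strand, are left out.

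The last column, with 94.6% to 94.8% of the stranded counts, was taken as the gene strand. KO was tested against WT on all 6 libraries in R 4.3.3 with edgeR 4.0.16 (filterByExpr, TMM factors, quasi-likelihood test, Benjamini-Hochberg over all genes tested), and apart from that on the opposite strand, where counts are scaled to the opposite-strand total. The standard error is the log2 fold change divided by the square root of F. CPM uses the TMM factors. DESeq2 1.42.0 was an alternative, beside other scalings and filters, a replicate block and leaving out each library. The fit was checked on simulated data.

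Promoter windows come from RefSeq tables on GRCm38.p6 and were aligned with Biopython 1.88. Members, lists and stretches were chosen with earlier results of these data known. Always named were Trmt1l, members tested on either strand, the 15 with most gene-strand and the 8 with most opposite-strand counts, and genes that overlap a named member with at least 10 counts. Any other gene was chosen after its values were seen.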

Additional observations from a re-analysis of the deposited data

How the results depend on the processing

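The number of genes called on the gene strand was 2. It was 298 of 37245 with no filter, 25 with DESeq2's Wald test, 15 with that test's filter on mean counts switched off, an alternative chosen after seeing the data, and 4 with the replicate number as a block. Leaving out 1 library gave 2 to 5, the highest without KO replicate 3. Vmn2r84 was the sole member called under any of them, with no filter and with DESeq2's filter off. On the opposite strand the number was 3, against 15 with no filter, 1 at a mean count of at least 50, 5 with the replicate block and 2 to 12 without 1 library (12 without KO replicate 3, 9 without WT replicate 3 and 6 without KO replicate 2). No member was called there. DESeq2 under its own filter gave no adjusted p for the 11 gene-strand members.

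Vmn2r53 changed sign, to 0.14 without WT replicate 1 and 0.21 without KO replicate 2, and its log2 fold change ran from -0.62 to 0.21 when 1 library was left out. That of Vmn2r112 on the opposite strand ran from -0.087, without KO replicate 1, to 0.27. Every other tested member kept its direction under each alternative that gave it a value, and a mean count of at least 50 gave none for members below it. Same-numbered libraries did not deviate together (correlations of 0.0402, -0.0314 and -0.0581), and differently numbered ones ran from -0.103 to 0.129. With 3 libraries per group this cannot show whether the numbers pair the libraries. The block called no member. Silent members on the gene strand were 82 to 84 when 1 library was left out, 104 when up to 3 counts in each library were allowed and 59 without regard to strand. On the opposite strand they were 85 to 88, 116 and 59. At this depth, members with a few counts per library cannot be compared between KO and WT.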

Other observations

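Vmn2r pseudogenes outside the family as defined here also held strand-specific counts. Vmn2r-ps89 had 599 counts on the strand opposite to its annotation, more than all but 5 of the protein-coding members had on their own strand. On the gene strand Vmn2r-ps20 held 138 counts, Vmn2r-ps24 held 108 and Vmn2r-ps19 held 75. The 116 genes of these types held 431 gene-strand and 966 opposite-strand counts in all, whereas the 122 protein-coding members held 6955 and 678. They were named after their values were seen, and no test was made.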
